A study of Mus musculus with 6 samples.

Results

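A set of 38 genes that encode receptors, signaling proteins, transcription factors and effector proteins of T cells and natural killer (NK) cells was followed in mouse leukemia cells with and without Ddit4. The genes were taken by symbol from the deposited count table, which held 55421 genes, and all 38 were found in it. Ddit4 codes for a protein that cells make under stress and that restrains mTOR. Its deletion was studied in a leukemia driven by AE9a, a truncated AML1-ETO fusion protein, and the question addressed by sequencing was how loss of Ddit4 alters gene expression in these leukemia cells. Each group had 3 libraries of leukemia cells from bone marrow of C57BL/6 mice. For AE9a-Ddit4+/+ (called wild type below), donor stem and progenitor cells selected for c-Kit had an intact Ddit4 gene. For AE9a-Ddit4-/- (called knockout below), such cells came from Ddit4 knockout donors. Cells of both groups had received AE9a by retrovirus together with a GFP marker and had been grown in irradiated recipients, which keep blood cells of their own. The study describes as many recipient mice in a group as there are libraries, but the sources used here neither tie a library to a mouse nor say if those mice carried different leukemias. Fewer first recipients of knockout cells developed leukemia in the study than there are knockout libraries, so some of these libraries may share a leukemia of origin. Here n therefore counts libraries, and p-values measure the spread between libraries.

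In a T cell, the receptor for antigen carries no signaling domain of its own and relies on the associated CD3 chains. Lck, brought in by the coreceptors CD4 or CD8, phosphorylates these chains, Zap70 binds to them, and Zap70 phosphorylates the adaptor Lat, on which further signaling proteins assemble. CD28 supports this signal and CTLA-4 restrains it. NK cells lack the antigen receptor and read other cells through activating and inhibitory receptors, but they share with cytotoxic T cells the granule proteins perforin and granzymes, which kill the target. Transcripts of these genes mark lymphoid cells, and several of them are also known from other blood cells. Lat and Fyn, for example, act in platelets and mast cells as well.

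The stretches just upstream of 5 members are shown as examples from the receptor complex and the effectors: Ctla2a and Ctla2b are neighboring paralogs with the highest knockout levels per exon length, Prf1 went from almost no counts to a well-covered transcript, and Cd3d and Cd3e encode chains of the receptor complex itself. Each is the 250 bases before the RefSeq start site on GRCm38.p6, read along the gene's strand. The capitals mark matches, on either strand, to TGTGGT (a core recognised by RUNX factors, the family to which AML1 belongs), AGGAAGT (a core recognised by ETS factors) or AGATAA (a core recognised by GATA factors). The 5 windows lie at chr13:60936626-60936875 (minus strand), chr13:60897448-60897697 (minus strand), chr10:61297586-61297835 (plus strand), chr9:44981536-44981785 (plus strand) and chr9:45009612-45009861 (minus strand).
Ctla2a: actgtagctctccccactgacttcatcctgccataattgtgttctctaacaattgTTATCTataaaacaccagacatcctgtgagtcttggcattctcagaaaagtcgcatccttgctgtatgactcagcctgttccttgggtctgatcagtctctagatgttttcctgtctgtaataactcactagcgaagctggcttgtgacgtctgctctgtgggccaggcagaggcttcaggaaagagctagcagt
Ctla2b: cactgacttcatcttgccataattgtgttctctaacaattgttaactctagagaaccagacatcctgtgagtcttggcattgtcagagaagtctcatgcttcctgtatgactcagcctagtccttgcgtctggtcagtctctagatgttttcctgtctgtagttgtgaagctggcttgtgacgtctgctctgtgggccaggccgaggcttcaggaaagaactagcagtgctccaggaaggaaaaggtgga
Prf1: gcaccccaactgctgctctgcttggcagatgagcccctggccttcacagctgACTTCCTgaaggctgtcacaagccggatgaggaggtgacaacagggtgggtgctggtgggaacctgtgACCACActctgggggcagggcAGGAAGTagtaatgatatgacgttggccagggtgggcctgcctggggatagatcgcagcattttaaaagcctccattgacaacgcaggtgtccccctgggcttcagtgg
Cd3d: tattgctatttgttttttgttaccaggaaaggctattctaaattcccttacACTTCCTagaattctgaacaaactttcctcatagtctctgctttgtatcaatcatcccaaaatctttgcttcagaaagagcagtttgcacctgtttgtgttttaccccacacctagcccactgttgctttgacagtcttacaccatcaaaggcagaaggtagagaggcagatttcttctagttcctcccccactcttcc
Cd3e: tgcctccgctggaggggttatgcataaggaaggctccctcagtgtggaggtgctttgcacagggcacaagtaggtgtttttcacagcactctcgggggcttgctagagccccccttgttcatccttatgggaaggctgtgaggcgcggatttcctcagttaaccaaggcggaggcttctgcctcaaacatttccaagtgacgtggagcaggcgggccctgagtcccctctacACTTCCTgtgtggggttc

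The windows of Ctla2a and Ctla2b were identical at 208 of 272 aligned positions (76.5%), whereas the median over 457 pairs of windows from different members was 44.4%. A GATA core was present in the Ctla2a window and absent from the Ctla2b window. These values are for the printed window of Ctla2a. RefSeq gives the gene a second start, with a window at chr13:60936567-60936816, which held none of the 5 motifs searched and was identical to the Ctla2b window at 189 of 295 aligned positions (64.1%). Prf1 held 1 RUNX and 2 ETS cores, and Cd3d and Cd3e held 1 ETS core each. RefSeq windows were found for 24 of the 38 members, 31 windows in all. The RUNX core was present in 10 of them (32.3%), in the genes Gzma, Gzmb, Klrb1c, Lck, Ncr1, Nkg7, Prf1, Txk and Zap70, against 14.0% of 32851 mouse windows of the same length. The ETS core was present in 8 (25.8%), in Cd247, Cd3d, Cd3e, Cd5, Lck, Prf1 and Txk, against 7.69% of all windows. The GATA core was present in 3 (9.68%), in Cd3g, Ctla2a and Txk, against 9.99%. CTTTGA, a TCF and LEF core, was present in 5 (16.1%) against 13.8%, and CAGCTG, an E-box, in 1 (3.23%) against 13.0%. These are matches of letters only, each motif was searched on its own, and some members contribute more than 1 window.

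Library totals ran from 62141558 to 72717681 counts, so depth was similar in all 6 libraries. Mitochondrial genes took 5.03% to 7.90% of the counts in wild type and 11.3%, 16.4% and 12.2% in knockout libraries 1, 2 and 3. Ddit4 itself was at 161 to 342 CPM (each count divided by the TMM-scaled library size and multiplied by 1000000) in wild type and at 77.7 to 85.9 CPM in knockout, a change of -1.56 on the log2 scale (edgeR adjusted p = 0.00635). Which part of Ddit4 the allele lacks is not stated in the sources used here. By western blot, the study reports that knockout leukemia cells made no DDIT4 protein. Kit was at 14.6 to 31.6 CPM in wild type and 304 to 509 CPM in knockout, and Mpo at 156 to 813 and 339 to 537 CPM. Both of these progenitor markers were thus detected in each library. Of 8 listed markers of leukemic progenitors, 4 were higher in knockout and 0 lower, against 19.4% and 10.7% of all genes tested. The summed level of the 8 was 514 to 1148.5 CPM in wild type and 1496 to 1821 CPM in knockout. The groups also differed in sex-linked transcripts: Ddx3y, a Y-linked gene, was at 0.0589 to 0.0774 CPM in wild type and at 88.2 to 125 CPM in knockout. Xist, a transcript of female cells, was lower in knockout but present in each knockout library (values below). Genotype and sex cannot be told apart in this design. A gene was treated as at or under the floor in a library with 12 counts or less, which is 0.163 to 0.198 CPM, because low values in the table pile up at multiples of 4 and a single fragment may have given 4 counts.

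Genes of every role, from the receptor complex to the secreted effectors, were higher in knockout. Of the 38 genes, 36 could be tested, 29 rose in knockout by edgeR's quasi-likelihood test (adjusted p below 0.05), and 0 fell. Over all genes tested, 30.1% were called in either direction, 19.4% higher and 10.7% lower. With an unadjusted p below 0.05, 30 members were higher and 0 lower, and DESeq2 called 30 higher and 0 lower. In 31 of the 38 genes all 3 knockout libraries lay above all 3 wild-type libraries, 30 of them among the 36 tested, whereas 27.9% of all genes tested had this order. The reverse order was seen for Gata3 alone, against 22.2% of all genes tested, and the groups overlapped for Cd7, Lat, Ptprcap, Gzmb, Nkg7 and Ncr1. The median of the 36 fitted log2 fold changes was 4.83 (4.23 when genes at or under the floor in wild type were set to their lower bounds), and the median over all genes tested was 0.04. The share of mitochondrial counts was higher in each knockout library than in each wild-type library, and its part in these calls was not tested. With mitochondrial genes left out of the fit, 30 of 37 members tested were called higher. That step drops their counts and cannot remove what goes with that share. In bulk RNA, more cells of a type and more RNA per cell cannot be told apart.

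Much of this difference was between very low and clear expression. Mean levels above 1 CPM were reached by 10 members in wild type and by 36 in knockout. In 12 members all 3 wild-type libraries were at or under the floor, and 5 of these (Cd8b1, Sh2d1a, Bcl11b, Klrb1c and Ncr1) had 0 counts in each of them, which allows up to 0.177 to 0.190 CPM per library, for counting error only. Of the 36 tested, 21 reached the cutoff of the filter on low counts in all 3 knockout libraries but not in all 3 wild-type libraries. This class favors genes that are higher in knockout, so its counts are given as a description: 20 of the 21 were called higher, where 58.7% of all genes in the class were. The remaining gene of the 21 was Gzmb, which was under the cutoff in wild-type library 2 alone. The other 15 members reached the cutoff in all 6 libraries, and 9 of them were called higher (Cd6, Cd28, Lck, Fyn, Il2rb, Ctsw, Ctla2a, Ctla2b and Ccl5), against 14.9% of all genes with that coverage.

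**Figure D1:**
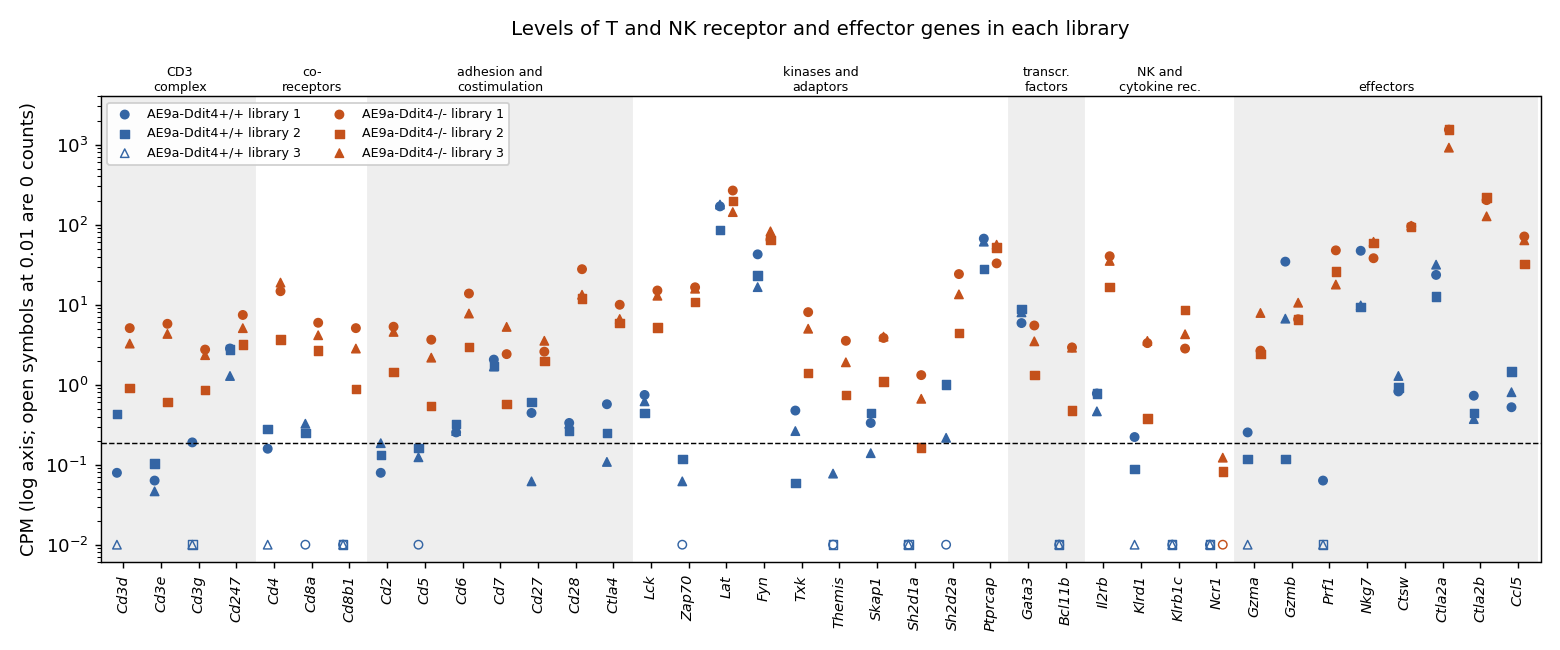
Level of each of the 38 genes in each library, in CPM on a log axis, grouped by role. Blue symbols are the 3 AE9a-Ddit4+/+ libraries, orange symbols the 3 AE9a-Ddit4-/- libraries, open symbols at 0.01 have 0 counts, and the dashed line is the mean floor of 0.184 CPM. In 31 genes every orange symbol lies above every blue one, and Ctla2a reaches 1542 CPM.

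Among the CD3 chains, 3 of 4 rose and the zeta chain gene did not pass the test. Cd3d, at 0.0791, 0.427 and 0 CPM in wild-type libraries 1, 2 and 3, was at 5.09, 0.905 and 3.26 CPM in knockout, and the log2 fold change was 4.17 ± 1.28 (standard error here and below, edgeR adjusted p = 0.0447). Cd3e was at 0.0633, 0.103 and 0.0464 CPM in wild type and at 5.77, 0.609 and 4.31 CPM in knockout. Cd3g was at 0.190, 0 and 0 CPM in wild type and at 2.75, 0.856 and 2.34 CPM in knockout. All 3 genes were thus near the floor in wild type and lowest in library 2 within knockout, and the groups did not overlap. With wild type set to the floor, Cd3e was at least 19.3-fold higher in knockout (edgeR adjusted p = 0.00522) and Cd3g at least 10.8-fold higher (edgeR adjusted p = 0.0312). Without knockout library 1 these bounds were 13.4-fold and 8.67-fold. These 3 genes are neighbors on chromosome 9 (chr9:44969572-45009627), with gaps of 1355 bases between Cd3g and Cd3d and 11401 bases between Cd3d and Cd3e. Cd247, the zeta chain, which also serves NK receptors, was already expressed in wild type at 2.83, 2.77 and 1.28 CPM and was at 7.44, 3.18 and 5.09 CPM in knockout. Its groups did not overlap, but the log2 fold change of 1.19 ± 0.50 missed the threshold (edgeR adjusted p = 0.110; DESeq2 adjusted p = 0.04). Cd247 shares its locus with Pou2f1 on the other strand, and whether counting used strand is not stated, so reads of both cannot be told apart. It also overlaps Gm16565 on the same strand, which had 164 to 243 counts in wild type and 132 to 234 in knockout. The call for Cd3d was lost without wild-type library 1 (edgeR adjusted p = 0.127) or 3 (0.0616) and without knockout library 1 (0.129) or 3 (0.0923), and its log2 fold change was 6.23 without wild-type library 2. The call for Cd3g was lost without wild-type library 3 (edgeR adjusted p = 0.0688) and without knockout library 1 (0.0898) or 3 (0.0754).

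All 3 coreceptor genes rose. Cd4, whose protein binds MHC class II, was at 0.158, 0.280 and 0 CPM in wild type and at 14.7, 3.67 and 18.9 CPM in knockout (log2 fold change 6.39 ± 1.17, edgeR adjusted p = 0.00669). Cd8a and Cd8b1 encode the chains of the coreceptor for MHC class I. Cd8a was at 0, 0.250 and 0.325 CPM in wild type and at 5.94, 2.68 and 4.15 CPM in knockout (log2 fold change 4.46 ± 1.07, edgeR adjusted p = 0.0188). Cd8b1 had 0 counts in each wild-type library and was at 5.09, 0.889 and 2.83 CPM in knockout, at least 15.9-fold higher (edgeR adjusted p = 0.00445), or 10.1-fold without knockout library 1. Every coreceptor gene was lowest in knockout library 2, and the groups did not overlap for any of them. Cd8a lost its call without knockout library 1 (edgeR adjusted p = 0.0613) and had a log2 fold change of 5.05 without wild-type library 3, and Cd4 had one of 7.27 without wild-type library 2. The summed level of the CD3 complex was 1.33 to 3.30 CPM in wild type and 5.55 to 21.0 CPM in knockout, and that of the coreceptors was 0.158 to 0.530 and 7.24 to 25.8 CPM.

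Of the 7 adhesion and costimulation receptors, 6 rose. Cd28, the main costimulatory receptor, was at 0.332, 0.265 and 0.325 CPM in wild type and at 27.8, 11.9 and 13.3 CPM in knockout, a log2 fold change of 5.83 ± 0.50 (edgeR adjusted p = 0.000462). The wild-type libraries hardly differed among themselves, and each knockout library was far above them. Ctla4, its inhibitory counterpart 113641 bases away on chromosome 1, rose by 4.59 ± 0.68 on the log2 scale (edgeR adjusted p = 0.00302), or 5.37 without wild-type library 1. It overlaps the pseudogene Rpl18-ps1, which had 66 to 128 counts in all 6 libraries. Cd6, which binds ALCAM and lies 50339 bases from its relative Cd5, rose by 4.85 ± 0.66 (edgeR adjusted p = 0.00226), or 4.25 without knockout library 1. Cd2, an adhesion receptor, was at least 20.5-fold higher in knockout (edgeR adjusted p = 0.0029) and Cd5, a dampener of receptor signaling, at least 11.5-fold (edgeR adjusted p = 0.0254). The bound for Cd2 was 16.3-fold without knockout library 1. Cd27, a receptor of the TNF receptor family, rose by 2.86 ± 0.78 (edgeR adjusted p = 0.0296). Cd27 shares its locus with Vamp1 on the other strand, which had 717 to 1064 counts in wild type and 1365 to 2567 in knockout. The calls for Cd5 and Cd27 did not hold in every fit that left a library out. Over all alternative fits their log2 fold changes ran from 3.81 to 5.05 and from 2.36 to 3.41. Cd5 lost its call without wild-type library 3 (edgeR adjusted p = 0.0706) or knockout library 1 (0.0847) or 3 (0.0605), and its lower bound was 7.38-fold without knockout library 1. Cd27 lost its call without wild-type library 1 (0.0745) and without knockout library 1 (0.0725), 2 (0.0503) or 3 (0.0821). Cd7, an early T and NK surface protein, was at 1.69 to 2.06 CPM in wild type and at 2.41, 0.576 and 5.28 CPM in knockout, so the knockout libraries lay on both sides of wild type (edgeR adjusted p = 0.568).

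The kinases and adaptors below the receptor fell into genes that were near absent in wild type and genes that were not. Of the 10, 7 rose, Lat and Ptprcap did not pass the test, and Sh2d1a was not tested. Zap70, which binds the phosphorylated CD3 chains, was at 0, 0.118 and 0.0619 CPM in wild type and at 16.5, 10.8 and 15.8 CPM in knockout. It was at least 78.1-fold higher in knockout (edgeR adjusted p = 0.00105), or 72.4-fold without knockout library 1. Lck, the kinase that starts receptor signaling, was at 0.744, 0.442 and 0.619 CPM in wild type and at 15, 5.15 and 12.9 CPM in knockout, a log2 fold change of 4.19 ± 0.54 (edgeR adjusted p = 0.00182). For both genes each knockout library was above each wild-type library. Fyn, a related kinase of wide expression, was at 42.6, 23.1 and 16.6 CPM in wild type and at 65.0, 64.6 and 82.5 CPM in knockout. Its groups did not overlap and its log2 fold change was 1.37 ± 0.35 (edgeR adjusted p = 0.0247), the smallest among the members called higher. The call for Fyn was lost without wild-type library 2 (edgeR adjusted p = 0.057) or 3 (0.0607) and without knockout library 1 (0.0562), 2 (0.0525) or 3 (0.0759).

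Lat, the adaptor that Zap70 phosphorylates, was the most abundant member in wild type. It was at 169, 85.6 and 178 CPM in wild type and at 267, 199 and 144 CPM in knockout, with overlap and a log2 fold change of 0.49 ± 0.34 (edgeR adjusted p = 0.309). Ptprcap, a protein bound to the phosphatase CD45, was at 66.9, 28.1 and 61.3 CPM in wild type and at 32.8, 51.5 and 56.2 CPM in knockout, with overlap (log2 fold change -0.15 ± 0.36, edgeR adjusted p = 0.778). Ptprcap overlaps Coro1b and Rps6kb2, which had 5877 to 10231 and 3292 to 4767 counts per library. The other adaptors and kinases were low throughout wild type. Txk, a Tec family kinase, rose by 4.18 ± 0.93 on the log2 scale (edgeR adjusted p = 0.0139), Skap1, an adaptor that links the receptor to adhesion, by 3.28 ± 0.71 (0.0123), and Sh2d2a, an adaptor that binds Lck, by 5.09 ± 1.34 (0.0262). Themis, needed for the selection of T cells in the thymus, was at least 11.2-fold higher in knockout (edgeR adjusted p = 0.0102), or 7.18-fold without knockout library 1. Sh2d1a, the adaptor SAP of T and NK cells, had 0 counts in wild type and was at 1.32, 0.165 and 0.666 CPM in knockout, at least 3.89-fold higher, or 2.26-fold without knockout library 1. Its 10 counts in knockout library 2 were under the floor. Txk lost its call without wild-type library 3 (edgeR adjusted p = 0.0514) and rose by 4.89 without wild-type library 1. Sh2d2a, at 0, 1 and 0.217 CPM in wild type and 24.1, 4.40 and 13.5 CPM in knockout, lost its call without wild-type library 3 (edgeR adjusted p = 0.086) or knockout library 1 (0.084, log2 fold change 4.45) or 3 (0.058), and rose by 6.98 without wild-type library 2.

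**Figure D2:**
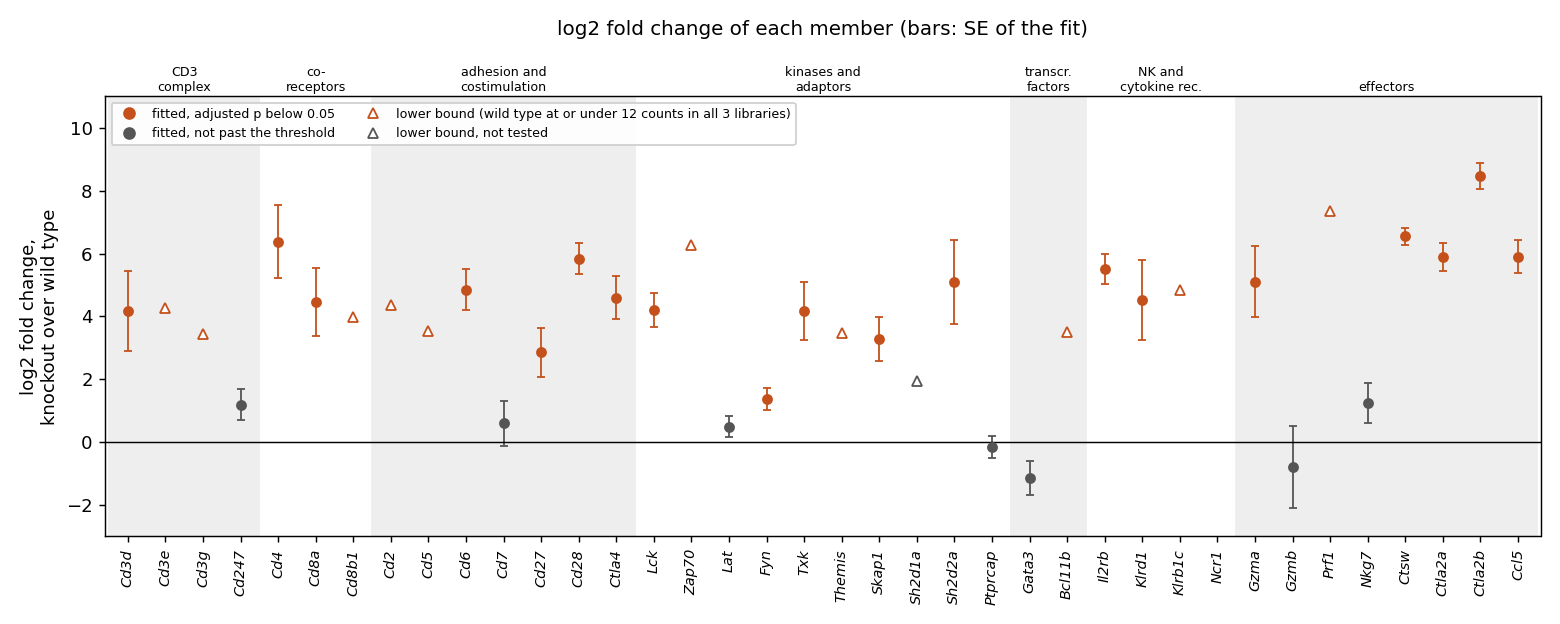
Difference between knockout and wild type for each gene on the log2 scale, with the standard error derived from edgeR's test (n = 3 libraries per group). Circles are fitted values, orange where the adjusted p was below 0.05, and open triangles are lower bounds for genes at or under 12 counts in all 3 wild-type libraries, and Ncr1 has no value. Fitted values run from -1.14 for Gata3 to 8.47 for Ctla2b, and no gene called lower appears.

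The lineage transcription factors went apart. Bcl11b, which fixes T cell identity in the thymus, had 0 counts in each wild-type library and was at 2.92, 0.477 and 2.90 CPM in knockout. Bcl11b was at least 11.4-fold higher in knockout (edgeR adjusted p = 0.00622), or 9.16-fold without knockout library 1. Gata3, a factor of T cells and innate lymphoid cells, was the only member with all knockout libraries below wild type: 5.89, 8.86 and 8.02 CPM in wild type and 5.49, 1.32 and 3.48 CPM in knockout. Its log2 fold change of -1.14 ± 0.54 did not pass the test (edgeR adjusted p = 0.146).

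Among the 4 NK and cytokine receptors, 3 rose and Ncr1 was not tested. Il2rb, the receptor chain shared by IL-2 and IL-15, was at 0.776, 0.781 and 0.464 CPM in wild type and at 40.3, 16.7 and 35.2 CPM in knockout, a log2 fold change of 5.51 ± 0.48 (edgeR adjusted p = 0.000495). The groups lay far apart, again with knockout library 2 lowest. Klrb1c, which encodes the NK1.1 antigen, had 0 counts in each wild-type library and was at 2.83, 8.63 and 4.27 CPM in knockout. Klrb1c was at least 28.5-fold higher in knockout (edgeR adjusted p = 0.00189), or 19.3-fold without knockout library 2. It was highest in knockout library 2, unlike Il2rb. Klrd1, which encodes CD94, was at 0.222, 0.0884 and 0 CPM in wild type and at 3.31, 0.379 and 3.52 CPM in knockout (log2 fold change 4.52 ± 1.28, edgeR adjusted p = 0.0332). It lost its call without wild-type library 2 (edgeR adjusted p = 0.0724) or 3 (0.057) and without knockout library 1 (0.0916) or 3 (0.0856), and rose by 5.69 without wild-type library 1. Ncr1, the NKp46 receptor of mature NK cells, had 0 counts in all wild-type libraries and 0, 5 and 9 counts in knockout, at or under the floor throughout, so no fold is given.

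The highest levels of the set per exon length in knockout were those of a pair of effector genes. Ctla2a and Ctla2b encode inhibitors that resemble the propeptide of cathepsins and were named for their cloning from activated T cells, although mast cells are also known to make them. Ctla2a was at 23.6, 12.6 and 31.6 CPM in wild type and at 1539, 1542 and 917 CPM in knockout, a log2 fold change of 5.88 ± 0.44 (edgeR adjusted p = 0.000303). Ctla2b was at 0.728, 0.442 and 0.371 CPM in wild type and at 203, 218 and 127 CPM in knockout, a log2 fold change of 8.47 ± 0.41 (edgeR adjusted p = 0.000114). Both paralogs were lowest in knockout library 3, and no library of the groups overlapped. The genes lie 36708 bases apart (chr13:60895350-60936625). The longest annotated transcript of each gene shared no identical stretch of 150 bases, the stated read length, with any transcript of the other. Of 1511 windows of 100 bases of the longest Ctla2b transcript, 28 were found in Ctla2a. Shorter transcripts were not compared with each other and mismatches were not allowed, so reads that fit both genes were not excluded. A predicted gene within Ctla2b on the same strand, Gm49392, had 0, 13 and 5 counts in wild type and 497, 450 and 738 in knockout. Together the pair made up 6.04% to 9.97% of the summed CPM of the 38 genes in wild type and 58.9% to 73.8% in knockout. The sum over the other 36 members was 168 to 377 CPM in wild type and 624 to 866 CPM in knockout, so it too lay apart between the groups.

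Perforin and the protease cathepsin W gave the clearest contrasts among the granule proteins. Prf1, the pore-forming perforin, was at 0.0633, 0 and 0 CPM in wild type and at 47.7, 25.9 and 17.8 CPM in knockout. Prf1 was at least 166-fold higher in knockout (edgeR adjusted p = 0.000609), or 119-fold without knockout library 1. In counts, its levels were 4, 0 and 0 against 2972, 1571 and 1312. Ctsw, known from cytotoxic T and NK cells, was at 0.823, 0.928 and 1.28 CPM in wild type and at 95.3, 93.5 and 96.9 CPM in knockout. Its knockout libraries differed less among themselves than those of the other effectors (SD 1.69 CPM), and its log2 fold change was 6.55 ± 0.27 (edgeR adjusted p = 0.000108). Ctsw overlaps Fibp on the other strand, which had 1267 to 1821 counts in all 6 libraries. Ccl5, a chemokine secreted by activated T and NK cells, was at 0.522, 1.46 and 0.805 CPM in wild type and at 71.2, 32.4 and 63.7 CPM in knockout (log2 fold change 5.90 ± 0.53, edgeR adjusted p = 0.000547). For all 3 genes each knockout library was above each wild-type library.

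The granzymes and Nkg7 showed how much single wild-type libraries could weigh. Gzma, a granule protease, was at 0.253, 0.118 and 0 CPM in wild type and at 2.67, 2.40 and 7.87 CPM in knockout, a log2 fold change of 5.11 ± 1.14 (edgeR adjusted p = 0.0138). That value was 6.13 without wild-type library 1 and 4.31 without knockout library 3, and the call held in both cases (edgeR adjusted p = 0.0247 and 0.0443). Gzmb, the other major granzyme, was at 34.5, 0.118 and 6.68 CPM in wild type and at 6.57, 6.49 and 10.6 CPM in knockout. Its wild-type libraries spanned the knockout libraries on both sides, and the log2 fold change was -0.80 ± 1.31 (edgeR adjusted p = 0.676) and turned to 1.21 without wild-type library 1. Nkg7, a membrane protein of cytotoxic granules, was at 47.2, 9.31 and 9.78 CPM in wild type and at 38.1, 58.7 and 61.0 CPM in knockout. With wild-type library 1 inside the knockout range, it did not pass the test (log2 fold change 1.25 ± 0.64, edgeR adjusted p = 0.177). Without that library it did (log2 fold change 2.46, edgeR adjusted p = 0.00452).

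Per exon length, the order of the genes differed between the groups. In wild type the highest mean levels in RPKM (CPM per kilobase of annotated exons) were those of Lat at 52.2, Ptprcap at 32.3, Nkg7 at 24.2, Ctla2a at 10.7, Gzmb at 9.59 and Fyn at 6.28. Of these, Lat, Ptprcap, Nkg7 and Gzmb did not pass the test between groups. In knockout the order was Ctla2a at 632, Ctla2b at 106, Lat at 73.4, Ccl5 at 58.1, Nkg7 at 57.5, Ctsw at 50.5, Ptprcap at 29.1, Fyn at 16.2, Prf1 at 11.8 and Il2rb at 7.17 RPKM. The CD3 chains stayed low on this scale even in knockout, with Cd3d at 1.70, Cd247 at 0.982, Cd3e at 0.873 and Cd3g at 0.606 RPKM.

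**Figure D3:**
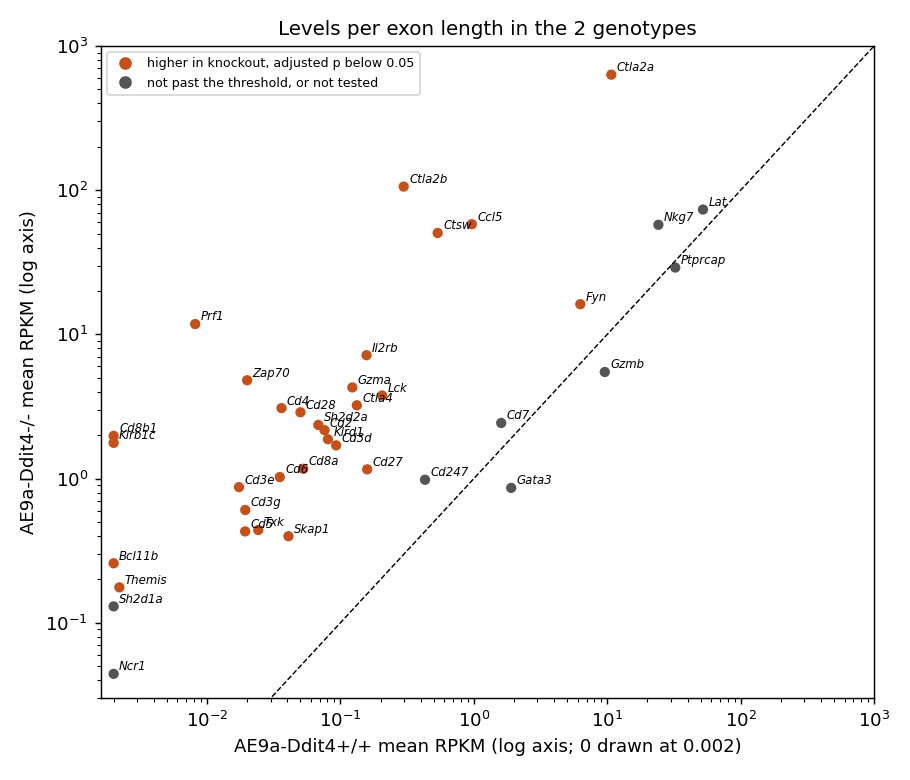
Mean level per exon length in AE9a-Ddit4+/+ (horizontal) and AE9a-Ddit4-/- (vertical) libraries, in RPKM on log axes, with values of 0 in wild type drawn at 0.002. Orange marks genes with an adjusted p below 0.05, and the dashed line marks equal levels. Lat, Ptprcap and Nkg7 lie near the line, whereas Ctla2a at 10.7 and 632 RPKM and Prf1 at 0.00817 and 11.8 RPKM lie far above it.

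Other T and NK genes, in 4 lists written from general knowledge with earlier results of these data known, were described in the same fit. Of 77 genes in the table, 70 could be tested, 47 rose and 0 fell by edgeR (1, Id2, was lower at an unadjusted p below 0.05 and with DESeq2), with a median log2 fold change of 2.41, where 19.4% of all genes tested were higher. Of the 70, 27 reached the filter's cutoff in all knockout but not all wild-type libraries, and 25 of them were higher (58.7% of all genes in that class). Another 42 reached it in all 6 libraries, and 22 of them were higher (14.9% of all genes in that class). Among the constant regions of the T cell receptor chains, all 3 genes tested rose. Trac, the alpha chain, had 0 counts in wild type and was at 8.08, 3.61 and 3.73 CPM in knockout (edgeR adjusted p = 0.00148). Trbc1 and Trbc2, the beta chains, were at 0 to 0.538 CPM in wild type and at 2.07 to 8.77 CPM in knockout (edgeR adjusted p = 0.0392 and 0.0236). Trdc, the delta chain, was not tested and was at 0.321, 0 and 0.925 CPM in knockout. Of 30 further genes of T cell receptor signaling, 20 rose. Among its 4 genes with the highest mean level, Ptprc, which encodes CD45, rose by 2.43 ± 0.39 on the log2 scale (edgeR adjusted p = 0.00416) and Tespa1 by 2.30 ± 0.35 (0.00347). The adaptor Lcp2 and the kinase Csk did not pass the test (log2 fold changes of 0.24 and -0.24).

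Of 15 further transcription factors tested, 9 rose. Satb1, a chromatin organiser of T cells, rose by 3.46 ± 0.53 on the log2 scale (edgeR adjusted p = 0.00351) and Runx3, a factor of cytotoxic cells, by 0.95 ± 0.19 (0.0096). Zeb2 and Id2 did not pass the test (log2 fold changes of 0.17 and -0.79). Of 22 further NK receptors and effectors tested, 15 rose. Fcgr3, an Fc receptor, rose by 1.99 ± 0.40 (edgeR adjusted p = 0.00985) and its signaling partner Fcer1g by 1.44 ± 0.32 (0.0141), both of which myeloid cells also use. Srgn, the proteoglycan of granules, and Lamp1, a lysosomal membrane protein, did not pass the test (log2 fold changes of 0.32 and -0.33).

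Markers of several other cell types differed between the groups as well. For scale, 19.4% of all genes tested were called higher and 10.7% lower. Of 11 B cell genes tested (15 listed), 9 were higher in knockout, their summed level was 8.26 to 140 CPM in wild type and 414 to 964 CPM in knockout, and 2 of the 15 had 0 counts in all wild-type libraries. Of 12 megakaryocyte and platelet genes tested, 9 were higher and 1 lower (summed level 143 to 227 and 2421 to 3348 CPM). Of 8 mast cell and basophil genes tested, 4 were higher (258 to 291 and 1179 to 1849 CPM). Of 8 innate lymphoid genes tested, 4 were higher (49.96 to 101 and 113 to 227 CPM). Of 9 conventional dendritic cell genes tested, 7 were higher (115 to 201 and 293 to 382 CPM), and of 8 plasmacytoid dendritic cell genes 4 were higher (24.4 to 51.6 and 145 to 202 CPM). Dendritic cells are also known to carry Cd4 or Cd8a. Of 11 blood stem cell genes tested, 9 were higher (28.0 to 70.0 and 578 to 905 CPM). Monocyte and macrophage genes, with 2 of 11 higher, were near the share of all genes, and their sums overlapped (713 to 1145 and 338 to 1229 CPM). Of 12 neutrophil genes 4 were lower (7365 to 11596 and 1453 to 4884 CPM). Of 11 erythroid genes 9 were lower (6870 to 14952 and 254 to 735 CPM). The sums of neither list overlapped between the groups. The part of these cell types in the levels of the T and NK genes was not tested.

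Within knockout, library 2 stood apart for many of the 38 genes, a pattern looked for after their values were seen and given as a description. Of the 36 tested, 29 had their lowest knockout level in library 2, 3 in library 1 and 4 in library 3, whereas 34.2% of all genes tested were lowest in library 2. The ratio of library 2 to the mean of libraries 1 and 3 was under 0.5 in 20 of the 36, against 12.6% of all genes tested, and above 1 in 5. Its median was 0.441 over the 37 members above the floor in knockout and 0.976 over all genes tested. By role, the median ratio was 0.277 for the CD3 complex, 0.224 for the coreceptors, 0.294 for adhesion and costimulation receptors and 0.881 for the effectors. Klrd1 had the lowest ratio of a member at 0.111, followed by Cd3e at 0.121. Klrb1c at 2.43, Ctla2b at 1.32 and Ctla2a at 1.26 were higher in library 2 than in the mean of the other two.

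The same ratio was low for several other lists. Its median was 0.381 for the T cell receptor constant genes, 0.406 for B cell genes, 0.266 for innate lymphoid genes, 0.293 for neutrophil genes, 0.306 for monocyte and macrophage genes and 0.231 for erythroid genes. It was 1.36 for megakaryocyte and platelet genes, 1.28 for blood stem cell genes and 1.17 for mast cell and basophil genes. Xist, which is transcribed in female cells, was at 63.2, 20.3 and 129 CPM in knockout libraries 1, 2 and 3 and at 566 to 1032 CPM in wild type, and its ratio was 0.211. The study's methods name female C57BL/6 recipients for the leukemia model. The mitochondrial share was also highest in library 2 (16.4%, against 11.3% and 12.2%). The part of other cell types and of the mitochondrial share in the spread between knockout libraries was not tested. Without knockout library 2, 28 members were called higher and 0 lower, and the median log2 fold change of the members was 5.20.

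**Figure D4:**
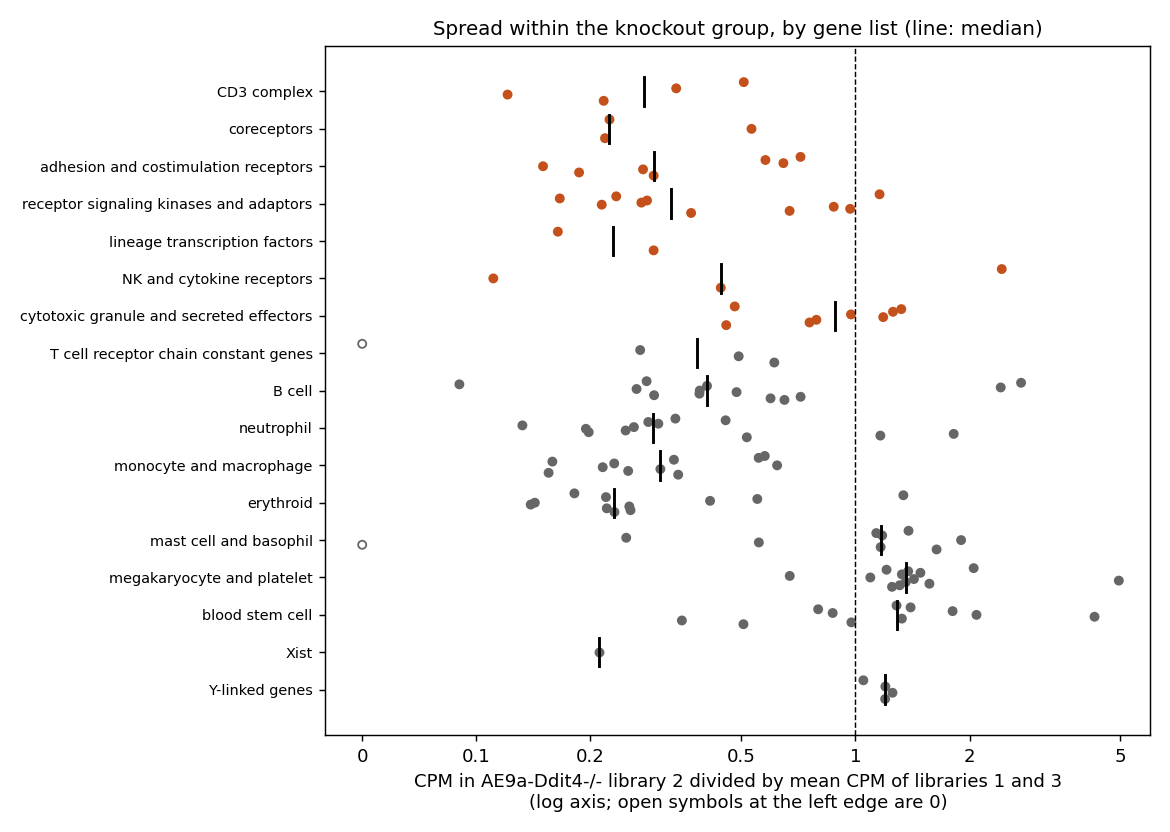
Level in knockout library 2 divided by the mean of knockout libraries 1 and 3, on a log axis, for each gene with a mean above the floor in knockout, with black lines at the medians and the dashed line at equal levels. Orange points are the 38 genes by role, gray points other lists, and open symbols at the left edge are 0. The CD3 complex (median 0.277) and the coreceptors (0.224) lie to the left of the line, the effectors (0.881) near it and megakaryocyte and platelet genes (1.36) to the right.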

How the data were processed

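RNA of leukemia cells was sequenced as 150 bp paired reads in 6 libraries. The authors deposited 1 table of counts per gene, whole numbers that had not been normalized. GRCm38 and mm10 are the builds listed in the submitters' processing notes, and the aligner, counting tool, annotation and use of strand are not given in the sources used here. The labels name an mRNA library kit and the methods a directional kit for rRNA-depleted RNA, so transcript selection was unresolved. Groups came from the sample titles. Of 55421 genes, 26626 had 0 counts throughout, 27 symbols that a spreadsheet had turned into dates were restored from their identifiers, and positions, strands and exon lengths were taken from GENCODE M21 on GRCm38.

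Counts were tested in R 4.3.3 with edgeR 4.0.16 (filterByExpr, TMM factors of 0.921 to 1.05, glmQLFit and glmQLFTest with robust estimation, genotype as the only term). The filter left 18375 genes (cutoff 0.155 CPM), over which p-values were adjusted by Benjamini-Hochberg. The code was tested on simulated data. Totals of 62141558 to 72717681 counts set the precision. Values of 4, 8 and 12 exceeded 2, 6 and 10 in frequency by a factor of 1.40 to 1.62 per library, so the floor was set at 12 counts. Because no molecular identifiers were used, a read is not an independent molecule, and limits refer to counting error alone. A lower bound on a fold divides the knockout mean by the mean floor. It takes in the limit of counting in wild type but not the spread between knockout libraries. Standard errors belong to edgeR's log2 fold changes.

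The members and all lists were chosen with earlier results of these data known. Values in every library were given for the CD3 complex, the coreceptors and the 12 members with the highest mean CPM, and for other lists up to 4 genes with the highest mean CPM. Exceptions, chosen after their values were seen, are Cd7, Zap70, Lck, Sh2d1a, Sh2d2a, Gata3, Bcl11b, Klrd1, Klrb1c, Gzma and Id2, and the comparison of knockout library 2 with the others. Alternatives were other scalings, DESeq2 1.42.0, other filters, counts divided by 4, removal of mitochondrial genes, a threshold of 0.01, a replicate block and leaving out each library. Promoter windows came from RefSeq (GRCm38.p6). Proteins were not analysed here.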

Additional observations from a re-analysis of the deposited data

How the results depend on the processing

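Each of 15 alternatives was applied to the members and the other T and NK genes. Of the 29 members called higher, 16 stayed past the threshold in every alternative that could test them, and 0 turned lower. Members called higher numbered 29 or 30 with other scalings, with DESeq2, without the low-count filter and without mitochondrial genes, and 25 with counts divided by 4. A filter of 10 counts or more in each library left 15 members to test, of which 9 were called higher, with 22 other T and NK genes and 16.4% of all genes tested, since that filter removes genes absent from wild type. At an adjusted p below 0.01 the counts were 17 members, 28 other T and NK genes and 2676 of all genes called (5535 at 0.05). Leaving out each library in turn gave 21 to 29 members called higher, a member median of 4.40 to 5.37, 34 to 53 other T and NK genes and 3840 to 6021 of all genes.

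Libraries with the same replicate number in the titles did not vary together: their deviations from the group means correlated at -0.165, -0.194 and -0.0495. With 3 libraries per group these values are a weak guide, and joint preparation of libraries was not tested. A fit with the replicate number as a block called 19 members higher and 2964 genes in all. The calls lost in it were those for Cd3d, Cd4, Cd8a, Cd5, Cd27, Fyn, Skap1, Sh2d2a, Klrd1 and Gzma.

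Directions turned only for members that did not pass the test. Gzmb (-0.80) was at 0.91 with the replicate block and ranged from -1.39 to 1.21 over the left-out libraries, the positive value without wild-type library 1. Ptprcap (-0.15) ranged from -0.45 to 0.067, positive without wild-type library 1 or knockout library 1 (0.053). Cd7 (0.60) ranged from -0.35 to 1.05, negative without knockout library 3. The cause was not tested. Depth limits what can be said of the 12 members at or under 12 counts in wild type, for which folds are lower bounds.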
